A study of Homo sapiens with 2 samples.

Results

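The genes described here are serum response factor (SRF) and its 2 co-activators MKL1 and MKL2 (also called MRTFA and MRTFB). With them are 7 genes linked to the contractile and actin cytoskeleton, TAGLN, MYL9, MYH9, CNN3, CALD1, FHL2 and FILIP1L. Below, the 7 are called contractile genes for short. FHL2 and FILIP1L are in this group by rule and are not described below as parts of the contractile machinery. Peaks were taken where the summit lay in a fixed window of hg19 around each of the 10 genes. Of the 9393 peaks in the list, 18 lay in these windows, and the windows together covered 2.14 Mb on 9 chromosomes. The gene names come from those windows. No hg19 annotation was used, so a peak in a window is not assigned to the gene, to an exon or to an intron, and the windows were checked only for chromosome: all 10 genes are on the same chromosome in RefSeq, and all 10 windows are longer than their gene. In RefSeq, protein-coding genes overlap MKL1 (SGSM3), TAGLN (PCSK7), FHL2 (C2orf49) and FILIP1L (CMSS1), and the direct neighbours of MYL9 are DLGAP4 and TGIF2. Overlap was checked with the gene and not with the longer window, so any further genes in a window are not listed.

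The peaks come from chromatin immunoprecipitation sequencing of MCF10A cells that express Flag-YAP-5SA, an active mutant of the co-activator YAP. MCF10A is an established human mammary epithelial line. Its source label calls it non-transformed, while its cell type label reads breast cancer cell line. There was 1 immunoprecipitated library, collected on Flag-M2 beads, and 1 input DNA library whose reads or coverage were not analysed here. The labels name no control cells without the transgene, and do not say which promoter drives it or whether the cells are 1 clone. The read depth is unknown and nothing has a replicate, so no p-value is given. The height of a peak is the authors' score at the summit, a whole number whose unit is not stated, so it serves here to rank peaks against each other and for nothing else. Over the whole list it had a median of 24 and ran from 9 to 100. Heights and densities were not corrected for DNA copy number.

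SRF is a MADS-box transcription factor that binds the CArG box, a short AT-rich element flanked by CC and GG, in promoters of cytoskeletal and immediate early genes. MRTF proteins bind monomeric actin and are kept in the cytoplasm by it. When actin polymerises they enter the nucleus, join SRF and activate genes for actin, myosin and actin-binding proteins. YAP has no DNA-binding domain of its own and reaches DNA mainly through TEAD factors, often at distal elements that also carry AP-1 sites. The YAP and MRTF pathways both respond to cytoskeletal tension, and several contractile genes are known as targets of both.

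Promoters are shown first, since the motifs of these factors can be read in them. RefSeq promoters of build GRCh38.p14, each holding 250 bases before and 50 after a transcript start, were matched for 8 of the 10 genes, with 22 starts in all. The missing ones are TAGLN and MYL9. Because the peaks are in hg19 and these sequences in GRCh38, no peak was placed on them. The 250 bases before the start are printed 5′ to 3′ on the gene's strand for 4 genes. SRF is shown as a gene without a peak in its window, and FHL2 as the gene whose window held the tallest peak. FILIP1L is shown because 1 start carried both a CArG box and a TEAD core. MYH9 is shown because all peaks of its window were taller than the list median. So were those of MYL9, which has no promoter here, and of CALD1, whose promoters are not printed. Capitals mark each match to the CArG box, to the TEAD core GGAATG or its reverse complement CATTCC, or to the AP-1 motif TGANTCA.
SRF start 1, chr6:43171019-43171268, plus strand: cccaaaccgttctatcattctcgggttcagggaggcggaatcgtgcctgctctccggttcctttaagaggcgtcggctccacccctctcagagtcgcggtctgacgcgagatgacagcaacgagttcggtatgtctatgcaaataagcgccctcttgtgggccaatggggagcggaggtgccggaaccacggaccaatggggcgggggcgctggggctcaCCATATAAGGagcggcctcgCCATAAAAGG
FHL2 start 2, chr2:105399052-105399301, minus strand: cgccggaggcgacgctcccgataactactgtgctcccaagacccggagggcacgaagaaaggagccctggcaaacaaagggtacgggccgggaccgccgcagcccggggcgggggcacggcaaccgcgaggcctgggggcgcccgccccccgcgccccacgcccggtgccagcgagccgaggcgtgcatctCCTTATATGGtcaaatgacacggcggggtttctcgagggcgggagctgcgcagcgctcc
FILIP1L start 1, chr3:99876174-99876423, minus strand: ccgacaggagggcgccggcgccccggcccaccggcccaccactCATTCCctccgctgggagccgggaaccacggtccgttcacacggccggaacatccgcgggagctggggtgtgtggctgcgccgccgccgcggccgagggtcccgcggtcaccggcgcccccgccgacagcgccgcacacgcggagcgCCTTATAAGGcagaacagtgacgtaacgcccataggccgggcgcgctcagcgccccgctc
MYH9 start 1, chr22:36387968-36388217, minus strand: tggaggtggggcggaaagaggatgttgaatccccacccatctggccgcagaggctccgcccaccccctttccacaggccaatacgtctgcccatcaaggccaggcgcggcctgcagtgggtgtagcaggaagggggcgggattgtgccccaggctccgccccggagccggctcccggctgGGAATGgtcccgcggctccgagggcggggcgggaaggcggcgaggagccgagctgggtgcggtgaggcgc

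The CArG box was searched without mismatches, on both strands. A match was found at 5 of the 22 starts and in 3 of the 8 genes, SRF, FHL2 and FILIP1L. It occurred in 1.29% of all 35116 RefSeq promoters of the same length, and in 1.6% of 27305 genes. SRF carried 2 boxes, CCATATAAGG and CCATAAAAGG, whose first bases lay 30 and 10 bp before the start. FHL2 carried CCTTATATGG 59 bp before its start 2. Its starts 1 and 3 overlap and share a single box, CCTTAAAAGG, 101 and 85 bp before them. The box of FILIP1L, CCTTATAAGG, lay 60 bp before start 1. Most of these genes are commonly listed as SRF targets, so a CArG box in their promoters is no independent observation. It overlapped no match of the other motifs.

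The TEAD core GGAATG was found on either strand at 7 starts in 6 of the 8 genes, MKL2, MYH9, CNN3, CALD1, FHL2 and FILIP1L, against 14% of all promoters and 16.7% of all genes. Genes with several starts, such as CALD1 and FHL2 with 4 each, have more chances of a match. The AP-1 motif TGANTCA was found at 2 starts in 2 genes, MKL2 and CALD1, against 7.71% of all promoters and 9.37% of all genes. Its middle base was left free in the search, and the matches were TGACTCA in MKL2 and TGATTCA in CALD1. Start 4 of MKL2 carried a TEAD core as well as the AP-1 motif, with TGACTCA 152 bp and GGAATG 83 bp before the start. A match is a description of these letters in a window of 300 bases, not of binding. The plot of motif positions shows which of the 22 starts carry each motif.

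**Figure D1:**
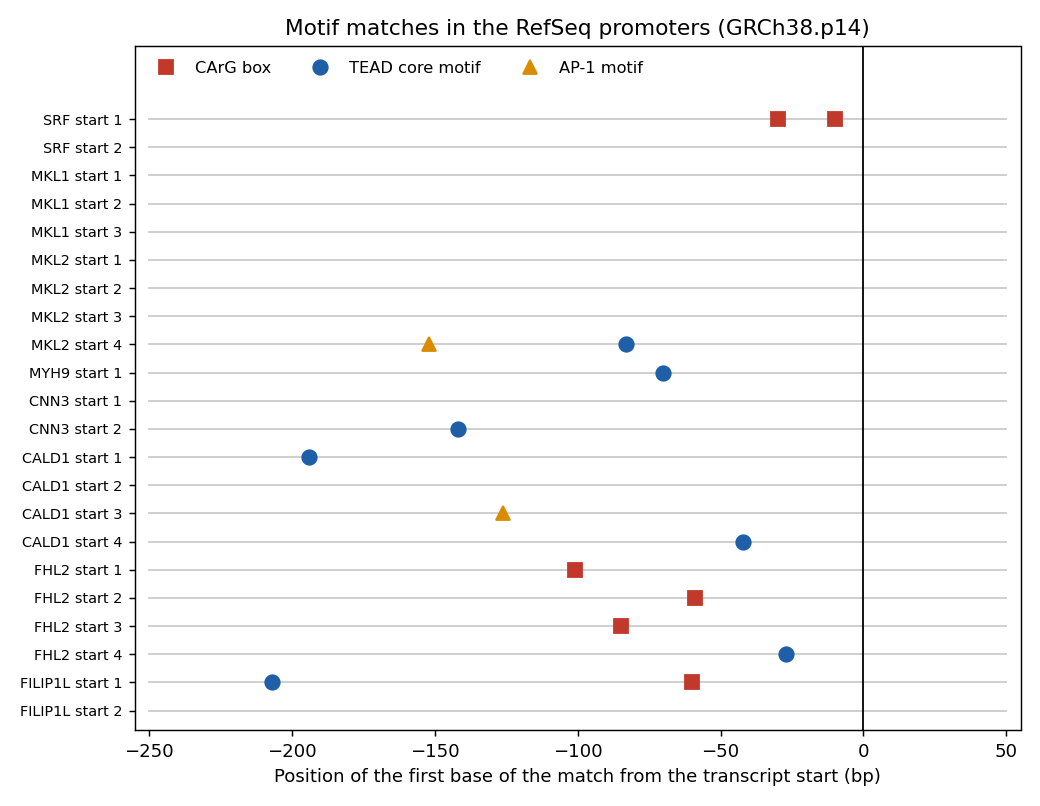
Position of motif matches in the 22 RefSeq promoters of 8 genes, in bp from the transcript start at 0. Each grey line is a promoter, squares are CArG boxes, circles the TEAD core on either strand and triangles the AP-1 motif, and CArG boxes appear only for SRF, FHL2 and FILIP1L.

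Of the 10 windows, 7 held at least 1 summit and 3 held none. Longer windows are more likely to hold one. When all chromosomes were divided into tiles of the same length as the windows, 26.9% of tiles of 110 kb held at least 1 summit, as did 32.3% at 140 kb, 40.1% at 190 kb, 41.7% at 200 kb, 53.6% at 300 kb, 55.5% at 320 kb and 59.6% at 360 kb. These tiles include regions without genes, which the windows do not, so the shares describe the list and not other genes. Of the 7 contractile gene windows, 6 held a summit. Of the 3 regulator windows, 1 did, that of MKL1. The difference was not tested, and its size depended on the setting. With only peaks taller than the list median, 1 of 3 regulator windows and 5 of 7 contractile gene windows held a summit. With windows widened by 50 kb on each side, 2 of 3 regulator windows and 6 of 7 contractile gene windows did. With windows narrowed by 50 kb on each side, 1 of 3 and 4 of 7 did. This narrowing removes most of a window of 110 or 140 kb.

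**Figure D2:**
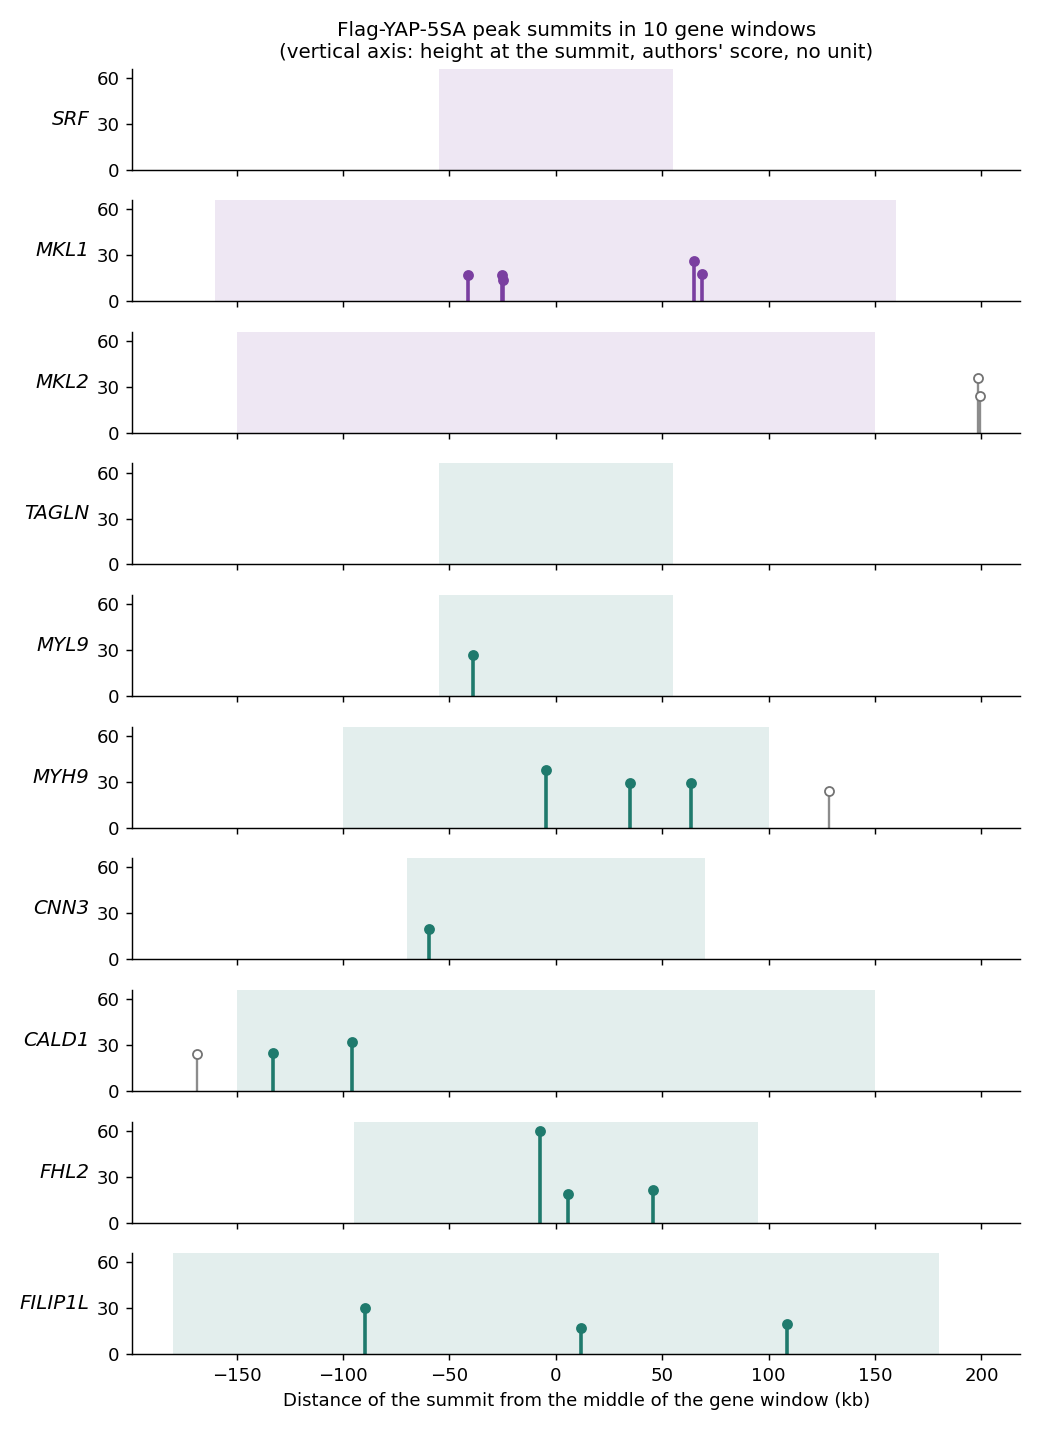
Peak summits in the 10 gene windows. The horizontal axis is the distance from the window's middle in kb, the vertical axis the height (authors' score), shading marks the window (purple for the regulators, green for the contractile genes) and open grey symbols are summits up to 50 kb outside it. The SRF, MKL2 and TAGLN windows are empty, and the tallest stem, at 60, is in the FHL2 window.

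SRF itself had no summit in its window (chromosome 6, 43.09 to 43.2 Mb). The nearest summits were 341.2 kb before the window, with a height of 20, and 353 kb beyond it, with a height of 27, so the peak-free stretch around SRF was 804.2 kb long. An empty window was the usual case at this length: 27% of the tiles of 110 kb on chromosome 6 held at least 1 summit, and the density of the chromosome gives 0.37 summits per window. The 1 Mb on each side of the SRF window held 14 summits, or 7 per Mb. The tallest of these had a height of 39 and lay 619 kb beyond the window. An absent peak means that the authors' caller listed none, not that the factor is absent.

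MKL2, the second MRTF gene, also had an empty window (chromosome 16, 14.11 to 14.41 Mb). On chromosome 16, 40.5% of tiles of 300 kb held at least 1 summit, so most were empty there too. The count depended on the edge of the window. A pair of peaks lay 48.5 and 49.4 kb beyond it, with heights of 36 and 24, at chr16:14458089-14459062 and chr16:14459066-14459731. The intervals almost touch. On the other side of the window no summit lay within 637.8 kb, and the peak-free stretch measured 986.3 kb, the longest around any of the 3 empty windows. In RefSeq's gene order the neighbour of MKL2 on the side of the pair is PARN, to which the pair was not assigned either.

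MKL1, which encodes MRTF-A, had the most peaks of any member. Its window (chromosome 22, 40.76 to 41.08 Mb) held 5 summits, and all were modest. Along the chromosome their heights were 17, 17, 14, 26 and 18, against a median of 24 for both chromosome 22 and the whole list, so 4 of 5 lay under the median. The lowest, 14, is near the bottom of the list, where 97% of peaks are as tall or taller. At least 5 summits were found in 3.20% of tiles of 320 kb over all chromosomes, and in 2 of the 95 tiles of chromosome 22.

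These 5 peaks formed a group of 3 and a pair. The first group was at chr22:40877969-40878880, chr22:40894292-40895004 and chr22:40895101-40895596. Its last members had summits 448 bp apart and intervals separated by 96 bp, so they may be counted as 1 enrichment, which would leave 4 in the window. After 89.7 kb came the pair at chr22:40984609-40985107 and chr22:40988532-40989039, with summits 3.8 kb apart. The first of the pair, of height 26, was the tallest in the window. The MKL1 window stood in a sparse region: only 4 summits lay within 1 Mb on either side, or 2 per Mb, and none for 1149.4 kb before it.

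MYH9 encodes the heavy chain of non-muscle myosin IIA, the motor of stress fibres. Its window (chromosome 22, 36.63 to 36.83 Mb) held 3 summits, with heights of 38, 29 and 29, at chr22:36725273-36726124, chr22:36764554-36765261 and chr22:36793260-36793881. All 3 were taller than the median of 24, and the tallest is matched or passed by 10.59% of the list and by 22 of the 121 peaks of chromosome 22, itself included. The summits were 39.3 and 28.8 kb apart. At least 3 summits were found in 6.44% of tiles of 200 kb over all chromosomes, and in 17 of the 151 tiles of chromosome 22, or 11.3%. One more summit, of height 24, lay 28.3 kb beyond the window.

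MYH9 and MKL1 are on the same chromosome and differed in height. The lowest MYH9 peak had a height of 29 and the tallest MKL1 peak a height of 26. How often other windows differ this much was not computed. The MYH9 peaks had a median of 29 and the MKL1 peaks a median of 17. With 3 and 5 peaks of a single library this is a description, and peaks of the same gene are not replicates.

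MYL9 encodes a regulatory light chain of the same myosin, whose phosphorylation switches on contraction. Its window (chromosome 20, 35.12 to 35.23 Mb) held 1 summit, of height 27, at chr20:35135860-35136498. That height equals the median of chromosome 20, whose peaks are taller than those of other chromosomes, and 36.83% of the whole list is as tall. The summit lay 16.3 kb from the window's edge, on the side of DLGAP4 in RefSeq's gene order, and the nearest other summit was 178.69 kb away. Chromosome 20 is dense in peaks, and 41% of its tiles of 110 kb held at least 1.

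FHL2 encodes a LIM-only protein that binds SRF and integrins and moves between focal adhesions and the nucleus. Its window (chromosome 2, 105.92 to 106.11 Mb) held the tallest peak of all 18, with a height of 60, at chr2:106007407-106008074. Only 88 peaks of the list, or 0.94%, are as tall, and 8 of the 780 on chromosome 2, counting itself. The other 2 peaks of the window were low, with heights of 19 at chr2:106020380-106021346 and 21 at chr2:106060612-106061113. The tall summit lay near the middle of the window, 87.8 kb from its start, and the next was 13 kb further along.

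The tall FHL2 peak was higher than every peak within 1 Mb of the window. The 7 summits within 1 Mb on either side of the window reached at most 29, at a median of 25. The window held 15.79 summits per Mb against 3.5 per Mb in that surrounding stretch and 3.28 over chromosome 2. At least 3 summits were found in 5.94% of tiles of 190 kb.

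CALD1 encodes caldesmon, which binds actin and myosin and restrains their interaction. Its window (chromosome 7, 134.41 to 134.71 Mb) held 2 summits, with heights of 25 at chr7:134426984-134427437 and 32 at chr7:134463920-134464706. Both were taller than the median of 23 on chromosome 7, and the taller is matched or passed by 20.85% of the list. Both lay in the first part of the window, 17.2 and 54.2 kb from its start, and another summit, of height 24, lay 18.6 kb before it. The remaining 245.8 kb of the window held none. At least 2 summits were found in 25.8% of tiles of 300 kb.

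CNN3 encodes calponin 3, an actin-binding protein of non-muscle cells. Its window (chromosome 1, 95.31 to 95.45 Mb) held 1 summit, of height 20, at chr1:95319941-95320899. Its interval measured 959 bp, a width that 6.36% of the list reaches. The summit lay only 10.6 kb inside the window, on the side of SLC44A3 in RefSeq's gene order. Beyond it no summit was listed until 1378.2 kb past the other edge, the longest such stretch beside any window.

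TAGLN encodes transgelin, an actin-crosslinking protein and a widely used SRF reporter gene. No summit lay in its window (chromosome 11, 117.02 to 117.13 Mb), as in most stretches of that length: 27.7% of the tiles of 110 kb on chromosome 11 held at least 1. The nearest were 59.4 kb before it, with a height of 18, and 214.5 kb beyond it, with a height of 17, both lower than the median. A much taller peak, of height 63, lay 458.7 kb beyond the window, at chr11:117588081-117589145.

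FILIP1L encodes a filamin A-interacting protein known to restrain cell migration. Its window, the longest (chromosome 3, 99.53 to 99.89 Mb), held 3 summits with heights of 30, 17 and 20. They lay at chr3:99620133-99620929, chr3:99721592-99722394 and chr3:99818365-99818989. The first was taller than the median and the others were lower. The peaks were spread out, 101.3 and 96.7 kb apart, the widest spacing among the windows with more than 1 peak. At least 3 summits were found in 16.1% of tiles of 360 kb.

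Together, the 18 peaks were of ordinary height. Their median was 23, with an interquartile range of 18.25 to 29 and extremes of 14 and 60, against a median of 24 and an interquartile range of 19 to 30 in the list. Of the 18, 9 were taller than the list median, as were 45.5% of all peaks. A height of 40 or more was reached by 1 of 18 (the FHL2 peak), against 8.67% of the list. Without the 5 MKL1 peaks, the median of the other 13, all in contractile gene windows, was 27. The plot of heights shows the MKL1 peaks at the low end and the single FHL2 peak far to the right.

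**Figure D3:**
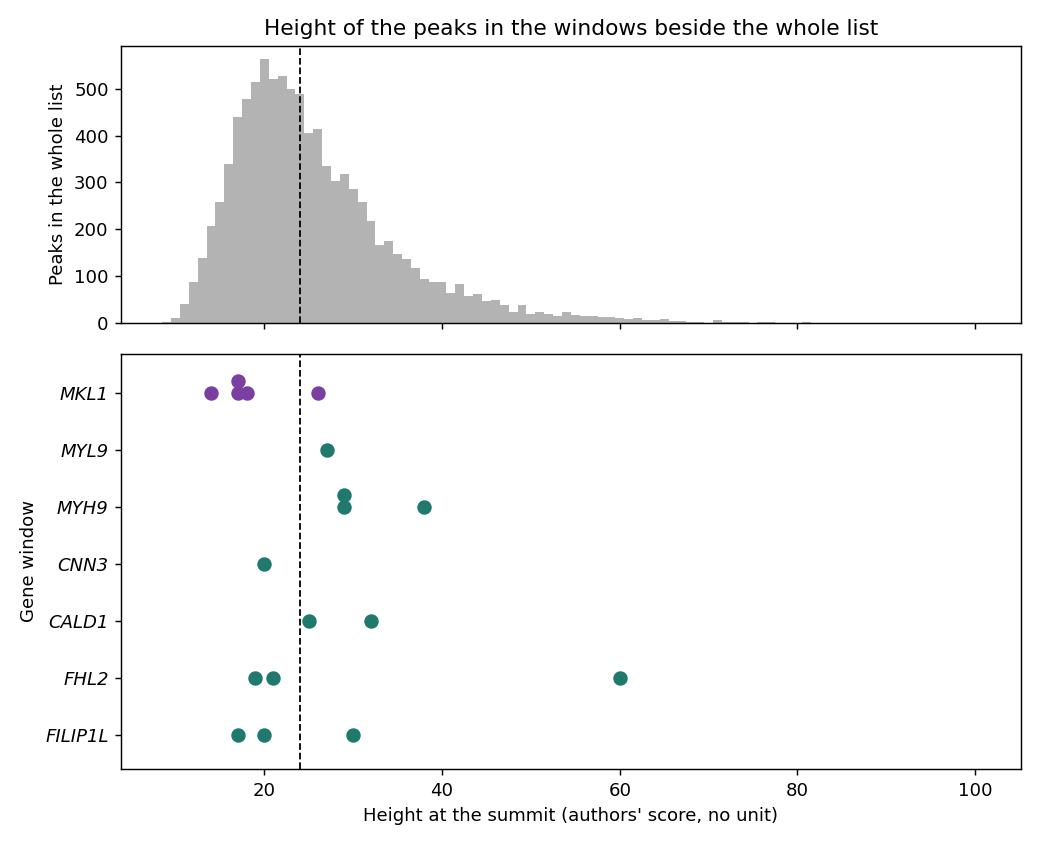
Heights (authors' score) of all 9393 peaks as a histogram above, and of the 18 peaks by gene window below, with equal heights stacked. The dashed line is the list median of 24, which 4 of 5 MKL1 peaks fall under and all 3 MYH9 peaks exceed.

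The median width of the 18 peaks was 688 bp, with an interquartile range of 536.5 to 801.5 bp, against 611 bp and 520 to 709 bp in the list. The narrowest was the first CALD1 peak, at 454 bp, and the widest was the second FHL2 peak, at 967 bp, which had a height of only 19. Of the 18 summits, 13 had another summit within 50 kb and 4, all in MKL1, within 10 kb. These shares were not computed for the whole list, so no clustering particular to the windows can be read from them.

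The windows were denser in summits than their chromosomes. The 18 summits in 2.14 Mb amount to 8.41 per Mb, with an exact Poisson interval at the 95% level of 4.99 to 13.29, which covers counting error only and is too narrow because summits cluster. The rest of the same 9 chromosomes had 3.58 per Mb, a ratio of 2.35. The stretches of 1 Mb on either side of the windows had 4.85 per Mb (97 summits in 20 Mb), a ratio of 1.73, and the interval of 3.93 to 5.92 for these overlaps that of the windows. Without MKL1 the windows had 7.14 per Mb (3.8 to 12.21). All 7 windows with a summit were denser than their own surroundings and than their chromosome, and the other 3 had 0. A single summit already gives 9.09 per Mb in a window of 110 kb, so this says little for the shorter windows. Whether windows around other genes are as dense was not tested, since no hg19 annotation was used. The windows were also chosen with earlier results of these data known, which the intervals do not allow for.

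**Figure D4:**
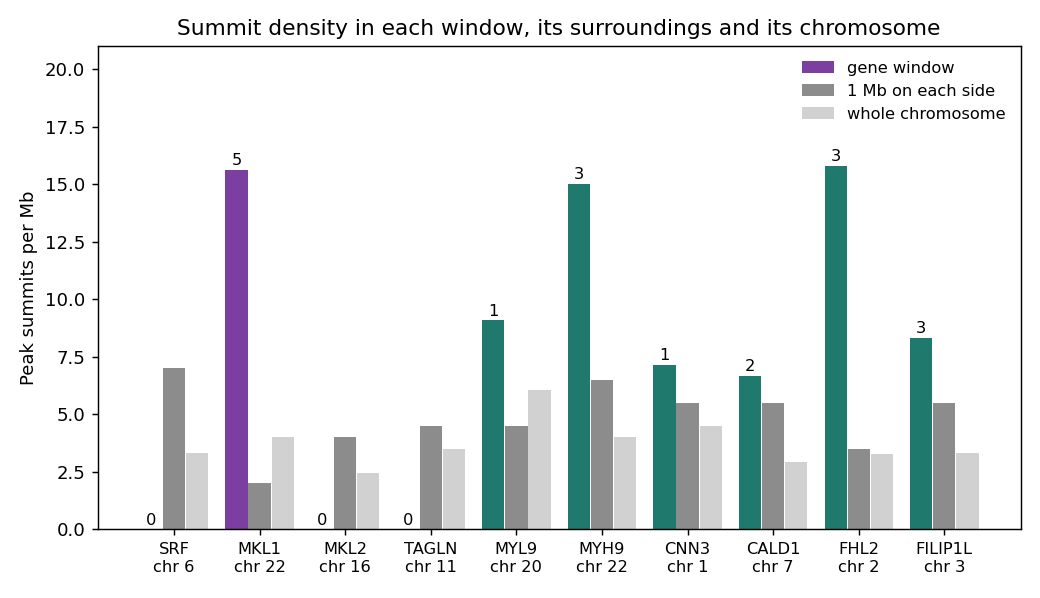
Peak summits per Mb in each gene window (purple for regulators, green for contractile genes, with the number of summits above the bar), in the 1 Mb on each side and over the whole chromosome. MKL1, MYH9 and FHL2 have 15 or more per Mb, and SRF, MKL2 and TAGLN have 0, as do most stretches of the same length on their chromosomes.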

How the data were processed

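Chromatin immunoprecipitation DNA of 1 library was sequenced and its peaks were deposited by the authors. Per the submitters' processing notes, the build was hg19 and the tools included MACS and BWA 0.6.1. Nothing in the labels or headers states the MACS version or threshold, how duplicates were treated or whether the input served as control. Per the file headers, the deposited file holds a summit track, whose score is called the height, and an interval track. The tracks were joined by line order, and 100% of summits lay inside their interval on the same chromosome.

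Summits are given as written and interval starts are 1-based. Chromosome length was taken as the distance from first to last summit less the longest peak-free stretch, and tiles wholly inside that stretch were left out. All 10 genes were named by rule, and every peak in their windows was accounted for. The genes, windows, motifs and comparisons were chosen with earlier results of these data known. The 4 promoters to print were chosen after the peaks and motifs were seen. Other genes of the pathway could not be placed without an hg19 annotation and were not analysed here. The motif search was tested on simulated sequences with a planted exact motif, which checks the code but does not count false matches. Scripts ran in Python 3.11.15, with pandas 2.3.3 for tables, scipy 1.17.1 for intervals and matplotlib 3.10.9 for plots.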

Additional observations from a re-analysis of the deposited data

How the results depend on the processing

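No paired analysis was possible because neither group has a second library, which also leaves no replicate to omit. Restriction to peaks taller than the list median left 9 of the 18 summits, about the share that the restriction keeps of the whole list; it took MKL1 from 5 to 1, FHL2 and FILIP1L from 3 to 1 and CNN3 from 1 to 0. Narrowing each window by 50 kb on each side left 13 summits and emptied the MYL9 and CNN3 windows. Those windows measured 110 and 140 kb, so the narrowing removed most of their length. Widening by 50 kb gave 22 and put 2 in the MKL2 window. Counting intervals that overlap a window gave 18. Merging intervals at most 200 bp apart, chosen after seeing the data, gave 17. The median height was 20 in narrowed windows, 25 after merging, 29 for the taller peaks by construction, and 20 to 27 with each gene left out in turn, against 23. The density ratio was 2.5 with the full span as chromosome length and 2.53 for taller peaks, against 2.35. The SRF and TAGLN windows still held no summit when widened by 50 kb; the other settings for single windows could not add one. The motif alternative in peaks was not run, because no hg19 sequence was used.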
